A study of Homo sapiens with 8 samples.

Results

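The genes described here encode the nuclear subunits of the 5 oxidative phosphorylation complexes. They were taken by symbol from a table of 26364 genes: NDUFA, NDUFB, NDUFC, NDUFS or NDUFV followed by a digit for complex I, SDHA to SDHD for complex II, UQCR for complex III, COX4 to COX8 for complex IV and ATP5 for complex V, leaving out symbols with a hyphen. Of 88 genes matched, 82 reached 1 TPM (a gene's length-corrected share of the transcripts in a library, scaled to the same total in each) in at least 2 of 8 libraries. These members comprised 38 genes of complex I, 4 of complex II, 10 of complex III, 11 of complex IV and 19 of complex V. Not every symbol is a subunit gene: UQCRHL, UQCRBP1, ATP5EP2 and ATP5L2 are near copies of UQCRH, UQCRB, ATP5E and ATP5L, with which they can exchange reads, ATP5S and ATP5SL are not ATP synthase subunits, and NDUFA4L2 and COX7A2L are paralogues of subunits. NDUFA4 is counted with complex I by its symbol although its protein is found in complex IV.

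Complex I takes electrons from NADH and complex II from succinate, and both pass them through ubiquinone to complex III and on to complex IV, where oxygen is reduced. Complexes I, III and IV pump protons across the inner mitochondrial membrane, and the ATP synthase, complex V, uses the gradient to make ATP. Acute myeloid leukemia (AML) cells, and their stem-like fraction in particular, are known to rely on this pathway. The subunits encoded in mitochondrial DNA were not analysed here.

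All libraries came from MV4-11, a human AML cell line with FLT3-ITD and the MLL-AF4 fusion, sampled at day 4. The 4 groups of 2 libraries each were the vehicle (DMSO), the LSD1 inhibitor tranylcypromine at 5 µM (TCP), the CDK4/6 inhibitor palbociclib at 0.5 µM (Palbo), and both molecules at these doses (PTCP). The labels give 4 days for every treatment. The methods of the study describe its in vitro combination treatments as 1 day of the CDK4/6 inhibitor alone and then both molecules. By that schedule TCP was present for less than 4 days in PTCP, and how long it was present in the TCP group cannot be told. The labels do not say whether the replicates were separate cultures, so the p-values measure the spread between these libraries, and a line stands for 1 leukemia.

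The 10 myeloid and AML markers were detected in all libraries, with a summed level of 1022 to 2399 TPM in DMSO and TCP and of 17846 to 30399 TPM in Palbo and PTCP. Of 7 erythroid and lymphoid markers, 5 were at 0 TPM in each library. Stromal genes set 1 library apart: the summed TPM of COL1A1, COL1A2 and COL3A1 was 55.1 in Palbo replicate 2 and between 0.342 and 8.33 in the other 7 libraries, and it was higher in replicate 2 than in replicate 1 of every group. The methods of the study describe its AML lines as grown on HS-5, a human stromal cell line, and do not say whether or how HS-5 cells were removed before RNA was extracted for these libraries. Of the 14 stromal markers, 8 reached the minimum of 1 TPM in at least 2 libraries, and the sum of the list was 305 to 357 TPM in DMSO, 721 to 722 TPM in TCP, 308 to 476 TPM in Palbo and 864 to 897 TPM in PTCP. Without VIM and TAGLN, 2 of its genes, the sum was 2.24 and 8.54 TPM in DMSO, 2.32 and 8.13 TPM in TCP, 7.24 and 98.5 TPM in Palbo, and 12.5 and 20.6 TPM in PTCP, so the higher sum in TCP lay in those 2 genes. POSTN was at 0 TPM throughout. In Palbo, 67 of the 82 members were lower in replicate 2 than in replicate 1, beside 36 in DMSO, 31 in TCP and 48 in PTCP. The median difference in Palbo was -0.10 over the members and -0.03 over all genes, and the share of all genes lower in replicate 2 is not given. The part of stromal RNA in that difference was not tested. Counts and medians over the 82 members in Palbo against DMSO, as deposited, are therefore also given without Palbo replicate 2. So are summed levels, the member medians and correlations that involve Palbo, and single members where a call was lost without it. By complex, the medians in Palbo against DMSO are given without it for complexes II and IV only, and the counts are given with all libraries. The 10 most abundant genes took 9.12% to 9.67% of each DMSO and TCP library and 13.96% to 15.8% of each Palbo and PTCP library. The median gene was at -0.16 on the log2 scale in Palbo and at -0.22 in PTCP, against DMSO, and changes below are also given relative to it.

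The members covered a wide range of levels. The highest mean TPM over all libraries belonged to NDUFB9 in complex I, SDHA in complex II, UQCRHL in complex III, COX8A in complex IV and ATP5B in complex V. The members' mean ran from 1.71 to 983 TPM with a median of 139 TPM, and 52 of the 82 exceeded 100 TPM. Together they made up 1.59% to 1.73% of the TPM of each DMSO and TCP library, and 1.27% to 1.39% in each Palbo and PTCP library.

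The 6 symbols matched but under the minimum encode tissue-restricted complex IV isoforms. COX4I2 and COX7B2 were at 0 TPM in all libraries, and COX6A2, COX6B2, COX7A1 and COX8C did not exceed 0.231, 0.877, 0.401 and 0.723 TPM in any library. Their widely expressed partners COX4I1, COX6A1, COX6B1, COX7A2, COX7B and COX8A were each expressed in every library, with the lowest value 166 TPM, for COX7B in PTCP.

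With TCP alone, 78 of the 82 members lay within 0.25 log2 units of DMSO, and the share of all genes within that range is not given. None of the 82 members passed the test (limma on log2(TPM + 1), Benjamini-Hochberg adjusted p below 0.05 over 14151 genes), against 0.431% of all genes tested, and 5 members (6.1%) against 8.77% of all genes had an unadjusted p below 0.05. The lowest adjusted p among members was 0.354 with limma, for ATP5E, which encodes the epsilon subunit of the F1 head. Its level was 215 and 217 TPM in DMSO and 297 and 252 TPM in TCP. The member median was 0.07 on the log2 scale while that of all genes was -0.04, and 18 of the 82 members (22%, against 61.4% of all genes) were below 0. Both TCP libraries lay above both DMSO libraries for 28 members (34.1%) and below for 3 (3.66%), against 12.4% and 22.3% of all genes tested. The medians were 0.04 in complex I, 0.07 in complex II, 0.04 in complex III, 0.09 in complex IV and 0.10 in complex V.

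In the TPM as deposited, members of every complex fell with palbociclib, whereas after median-ratio scaling (described below) none of complex III was called lower in Palbo. Against DMSO, 39 of the 82 members (47.6%) passed the test in Palbo, a share near the 45% of all genes called, and they split into 33 lower (40.2%, against 30.2% of all genes) and 6 higher (7.32%, against 14.8%). The member median was -0.23, which was -0.07 relative to the median gene. Without Palbo replicate 2 the call covered 23 members, 19 lower and 4 higher (28%, against 27.7% of all genes), with a median of -0.17. The lower members were then 23.2% of the 82, beside 18.1% of all genes. Leaving out DMSO replicate 1 or DMSO replicate 2 also left fewer members called, with medians of -0.26 and -0.23. The share of all genes called in these 2 settings is not given. Both Palbo libraries lay below both DMSO libraries for 56 members (68.3%, against 49.7% of all genes) and above them for 13 (15.9%, against 26.5%). Palbo replicate 1 alone lay below both DMSO libraries for 57 members (69.5%, against 54.5% of all genes) and above them for 19 (23.2%, against 31.9%).

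Of the treatments, PTCP had the largest count against DMSO. Of the 82 members, 46 (56.1%) passed, beside 53.6% of all genes, of which 43 were lower (52.4%, against 37.6% of all genes) and 3 higher (3.66%, against 15.9%). With the replicate number as a block, 5 were higher (6.1%, against 18.6%), the added increases being UQCR11 and UQCRBP1, a near copy, both of complex III. The lower members then numbered 47, but the share of all genes called lower under the block is not given, so this shift is not shown to be particular to the members. Both PTCP libraries lay below both DMSO libraries for 62 members (75.6%, against 54.2% of all genes) and above them for 9 (11%, against 26%). The member median was -0.32, or -0.10 relative to the median gene, and 49 of the 82 lay within 0.25 log2 units of the median gene. Against TCP, 53 members passed (64.6%, against 50.2% of all genes), of which 49 were lower (59.8%, against 33.8%) and 4 higher (4.88%, against 16.5%), with a median of -0.38. Both PTCP libraries lay below both TCP libraries for 66 members (80.5%, against 48.9% of all genes) and above them for 5 (6.1%, against 25.9%). In PTCP against DMSO, 23 members had a log2 fold change below -0.5, and NDUFA4L2 alone was below -1. The share of all genes in these ranges, or within 0.25 log2 units of the median gene, is not given.

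These counts depended on how TPM were scaled. When each library was divided by a size factor, the median over genes of the ratios to their geometric means, which sets the median gene close to 0 in each comparison, 28 members passed in Palbo against DMSO (34.1%, against 40.4% of all genes), 17 lower (20.7%, against 19.5%) and 11 higher (13.4%, against 20.9%). In PTCP against DMSO, 31 passed (37.8%, against 46.9%), 19 lower (23.2%, against 22.7%) and 12 higher (14.6%, against 24.1%). Over all genes this scaling moved the higher share of the calls from 32.8% to 51.7% in Palbo and from 29.8% to 51.5% in PTCP. In PTCP against TCP, 37 members passed after this scaling (45.1%, against 45.7% of all genes), 31 lower (37.8%, against 22.1%) and 6 higher (7.32%, against 23.6%). The member medians became -0.05, -0.08 and -0.19 in these 3 comparisons.

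**Figure D1:**
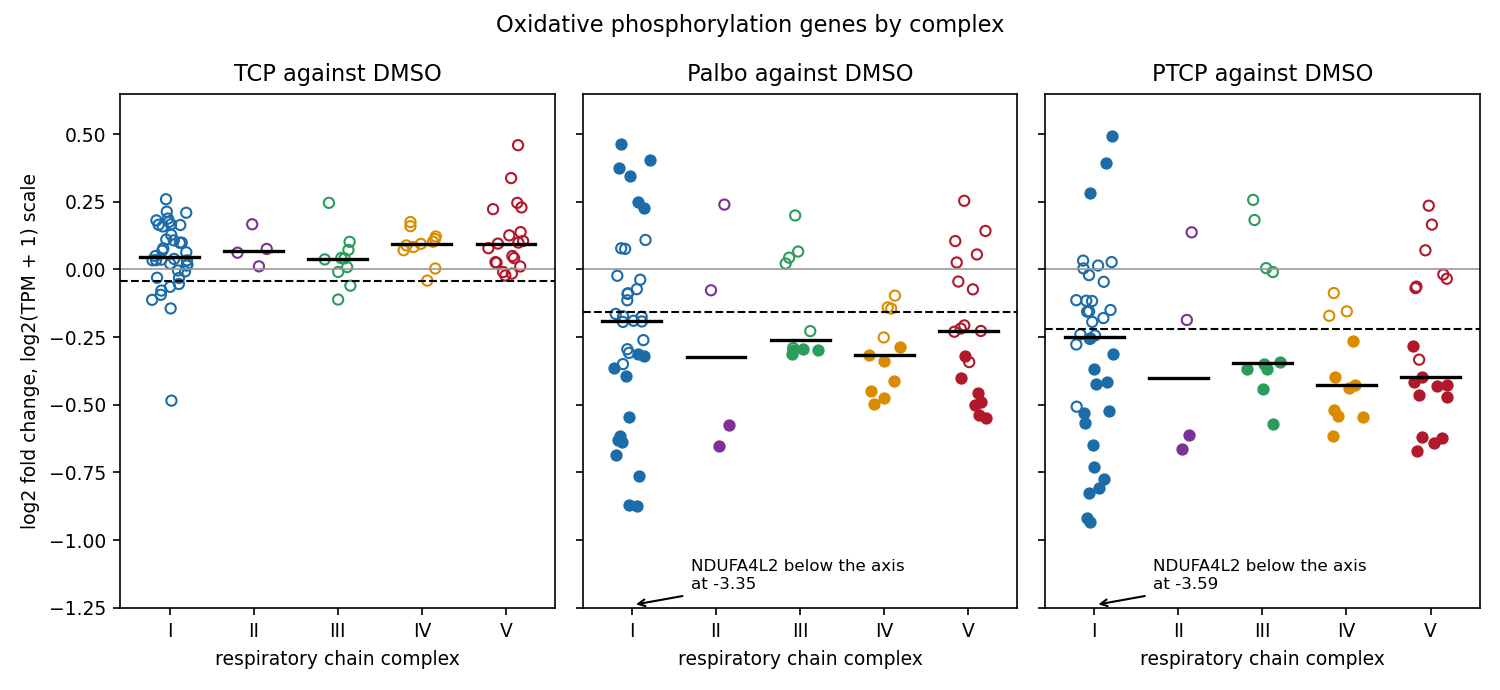
Log2 fold changes of the 82 members against DMSO on the log2(TPM + 1) scale, one point a gene, by complex, for TCP, Palbo and PTCP. NDUFA4L2 lies below the axis in Palbo and in PTCP, at -3.35 and -3.59. Filled points passed limma's adjusted p below 0.05, bars are complex medians and the dashed line is the median of all 14151 genes; no point is filled in TCP, and in PTCP the medians of complexes II to V lie below the dashed line while that of complex I is near it.

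Split by complex, the medians in PTCP against DMSO were -0.25 for complex I, -0.40 for complex II, -0.35 for complex III, -0.42 for complex IV and -0.40 for complex V. Complex I was near the median gene, at -0.03 relative to it, and the other 4 complexes lay between -0.13 and -0.21 relative to it. Of the 38 complex I members, 16 fell and 3 rose. In the other complexes the lower members numbered 2 of 4, 6 of 10, 8 of 11 and 11 of 19, with 0 higher in the TPM as deposited, but after median-ratio scaling 1, 3, 0 and 4 members of complexes II to V passed as higher. The same order was not seen in Palbo, where the medians were -0.19, -0.33, -0.26, -0.32 and -0.23 for complexes I to V and where 13 members of complex I were lower and 6 higher. Without Palbo replicate 2 the medians of complexes II and IV in Palbo were -0.23 and -0.25. After median-ratio scaling the complex I median was -0.01 in Palbo and in PTCP, with 8 lower and 7 higher in Palbo and 10 lower and 4 higher in PTCP. Over all genes, 37.6% were called lower and 15.9% higher in PTCP as deposited, and 22.7% and 24.1% after median-ratio scaling. In Palbo these shares were 30.2% and 14.8% as deposited, and 19.5% and 20.9% after scaling.

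Summed over the subunits of a complex, leaving out copies, paralogues and non-subunits, the transcripts of each complex were lower with palbociclib. In complex I, the 37 subunits summed to 4816 and 4939 TPM in DMSO, 4910 and 5315 TPM in TCP, 4409 and 4212 TPM in Palbo, and 4061 and 4023 TPM in PTCP. Both PTCP libraries and both Palbo libraries were below both DMSO libraries, and the TCP libraries overlapped the DMSO libraries. In complex V, the 15 subunits summed to 4469 and 4532 TPM in DMSO, 3821 and 3444 TPM in Palbo, and 3576 and 3446 TPM in PTCP. As a share of DMSO, the PTCP sums were 82.9% for complex I, 76.8% for complex II, 81.2% for complex III, 76.0% for complex IV and 78.0% for complex V. In TCP the shares were 104% to 108%. In Palbo they were 88.4%, 79.8%, 87.0%, 80.8% and 80.7% for complexes I to V, and Palbo replicate 1 alone was at 90.4%, 85.2%, 90.9%, 83.9% and 84.9%. After median-ratio scaling the PTCP shares were 98.3%, 91.0%, 96.3%, 90.2% and 92.5%. With 2 libraries a group an exact permutation test cannot give a p below 0.333, so the sums are given without a test.

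**Figure D2:**
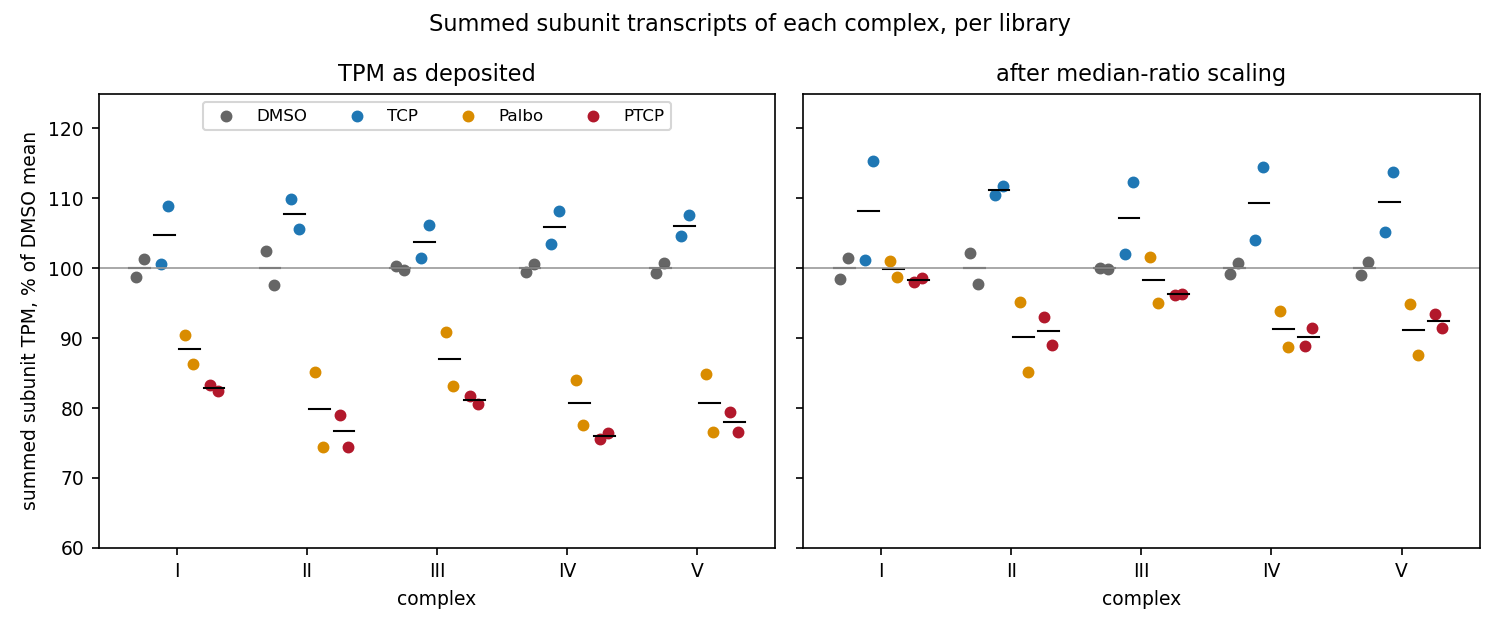
Summed TPM of the subunits of each complex in each library as a percentage of the DMSO mean, as deposited (left) and after median-ratio scaling (right), with points for libraries and bars for group means. As deposited, the Palbo and PTCP points of every complex lie below the DMSO and TCP points, and after scaling those of complex I lie within a few percent of DMSO.

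Promoters are shown for the largest decrease, for NDUFS7, a decrease with 3 kinds of motif found, and for the largest increase in PTCP against DMSO, among called members with a promoter in the RefSeq table (GRCh38.p14, 250 bases before to 50 after the start). NDUFA4L2 lies at chr12:57240695-57240994 on the minus strand, NDUFS7 at chr19:1383657-1383956 on the plus strand and NDUFA2 at chr5:140647581-140647880 on the minus strand. The letters searched, on both strands, were GCGCANGCG for NRF1, CCGGAAGT for ETS factors, AAGATGGCG for YY1 and ACGTG. The last is a form of the core of the hypoxia response element, which a CACGTG box holds on both strands. The other form, GCGTG, was not searched and occurs in the NDUFA4L2 promoter shown. Capitals mark matches. NDUFS7 has the NRF1 letters on the other strand from -74, the YY1 letters from 18 and ACGTG on both strands from -187, counted from the start of the gene, and the other promoters shown hold no match. ATP5J, which fell less than NDUFS7 in PTCP, also has 3 kinds of motif.
NDUFA4L2: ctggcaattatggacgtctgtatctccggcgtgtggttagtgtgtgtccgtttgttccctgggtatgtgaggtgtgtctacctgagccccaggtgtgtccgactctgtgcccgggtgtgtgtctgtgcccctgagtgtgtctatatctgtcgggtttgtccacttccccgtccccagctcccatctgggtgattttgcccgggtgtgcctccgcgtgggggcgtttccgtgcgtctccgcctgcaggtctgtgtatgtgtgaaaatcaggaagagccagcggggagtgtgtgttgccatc
NDUFS7: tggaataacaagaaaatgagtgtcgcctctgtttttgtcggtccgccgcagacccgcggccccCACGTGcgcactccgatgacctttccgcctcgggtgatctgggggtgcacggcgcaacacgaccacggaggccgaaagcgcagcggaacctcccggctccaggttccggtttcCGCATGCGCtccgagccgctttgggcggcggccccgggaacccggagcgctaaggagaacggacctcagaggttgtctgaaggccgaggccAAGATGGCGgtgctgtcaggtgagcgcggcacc
NDUFA2: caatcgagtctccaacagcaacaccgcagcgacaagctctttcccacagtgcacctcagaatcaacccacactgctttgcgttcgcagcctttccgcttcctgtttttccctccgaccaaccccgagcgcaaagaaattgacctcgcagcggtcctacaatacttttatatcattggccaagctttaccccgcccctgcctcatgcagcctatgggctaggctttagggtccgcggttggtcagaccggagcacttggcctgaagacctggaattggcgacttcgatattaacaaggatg

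A promoter was listed for 64 of the 82 members. The NRF1 letters, for the nuclear respiratory factor known for its sites in respiratory chain genes, were in 21 of them (32.8%), against 9.02% of the 27305 genes with a promoter and 16.9% of the 10336 among them that were tested. The YY1 letters were in 9 (14.1%, against 2.13% and 4.81%), the ETS letters in 11 (17.2%, against 4.95% and 10.3%) and ACGTG in 17 (26.6%, against 24.9% and 32.0%). In PTCP against DMSO, the median log2 fold change of members with and without the NRF1 letters was -0.37 and -0.34, and with a final C added to the letters it was -0.28 and -0.37, so the order of these medians turned with 1 base. The medians with and without the letters were -0.51 and -0.31 for YY1, -0.28 and -0.37 for ETS and -0.34 and -0.37 for ACGTG. A match is a description of the letters and no sign of binding.

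NDUFA4L2 had the largest difference of any member in Palbo and in PTCP against DMSO. It encodes a paralogue of NDUFA4 known as a target of hypoxia-inducible factor and lies at chr12:57628686-57634498 (GRCh37, minus strand). Its level was 16.8 and 9.51 TPM in DMSO, 10.9 and 7.04 TPM in TCP, 0.433 and 0.257 TPM in Palbo, and 0.0916 and 0.179 TPM in PTCP. All 4 libraries with palbociclib were below 0.5 TPM and all 4 without were above 7 TPM. It fell by 3.35 ± 0.29 (SE) on the log2(TPM + 1) scale in Palbo (limma, adjusted p = 0.000289) and fell by 3.59 ± 0.29 in PTCP (limma, adjusted p = 0.000124), against DMSO. That scale understates a change that ends below 1 TPM. The gene met the minimum of 1 TPM only in the 4 libraries without palbociclib, where it was high, so its selection for testing was not independent of the difference, and with no filter, over 20660 genes, its adjusted p was 0.00123 in Palbo and 0.000608 in PTCP (limma). The other 81 members were at or above 1 TPM in every library. It was the only member past the thresholds of the study, a log2 fold change of 1 or more in either direction together with adjusted p below 0.01, which 9.1% of all genes passed in Palbo and 13.7% in PTCP against DMSO and 12.2% in PTCP against TCP. Its partner NDUFA4 was at 52.2 and 51.2 TPM in DMSO and at 49.6 and 52.4 TPM in PTCP, where the 2 groups overlapped.

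The next largest decreases in PTCP were in complex I. On GRCh37, NDUFA5 lies at chr7:123177051-123197958 (minus strand), NDUFB6 at chr9:32552997-32573160 (minus strand) and NDUFS6 at chr5:1801521-1816162 (plus strand). NDUFA5, an accessory subunit of the peripheral arm, was at 29.0 and 24.7 TPM in DMSO, 26.6 and 22.9 TPM in TCP, 20.2 and 14.5 TPM in Palbo, and 14.5 and 12.6 TPM in PTCP. NDUFB6, an accessory subunit of the membrane arm, was at 52.1 and 62.1 TPM in DMSO, 50.8 and 67.1 TPM in TCP, 31.7 and 29.6 TPM in Palbo, and 30.5 and 28.8 TPM in PTCP. NDUFS6, a zinc-binding accessory subunit of the peripheral arm, was at 336 and 347 TPM in DMSO, 327 and 376 TPM in TCP, 209.5 and 192 TPM in Palbo, and 189 and 194 TPM in PTCP. In each of these genes, the 4 libraries with palbociclib lay below the 4 without it. Against DMSO in PTCP, the log2 fold changes were -0.93 ± 0.17 for NDUFA5, -0.92 ± 0.15 for NDUFB6 and -0.83 ± 0.09 for NDUFS6 (limma, adjusted p = 0.00383, 0.00194 and 0.000347). In Palbo they were -0.62 ± 0.17, -0.87 ± 0.15 and -0.76 ± 0.09 (limma, adjusted p = 0.0248, 0.00326 and 0.000745). The log2 fold change of NDUFA5 in Palbo was -0.39 without Palbo replicate 2 and no longer passed (limma, adjusted p = 0.131), nor did it without either DMSO library or after median-ratio scaling.

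NDUFA9, an accessory subunit where the peripheral arm meets the membrane arm, had its lowest level in Palbo. It was at 57.1 and 51.4 TPM in DMSO, 61.7 and 59.9 TPM in TCP, 30.2 and 28.1 TPM in Palbo, and 32.8 and 31.7 TPM in PTCP. The Palbo and PTCP libraries did not overlap each other, but their difference of 0.14 did not pass the test (limma, adjusted p = 0.452). Against DMSO it fell by 0.87 ± 0.09 in Palbo (limma, adjusted p = 0.000433) and fell by 0.73 ± 0.09 in PTCP (limma, adjusted p = 0.00052).

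A small group of complex I genes went the other way. NDUFA2, an accessory subunit of the peripheral arm, was at 105 and 107 TPM in DMSO, 119.8 and 126 TPM in TCP, 143 and 131 TPM in Palbo, and 157 and 142 TPM in PTCP. NDUFC2, an accessory subunit of the membrane arm, was at 77.8 and 70.2 TPM in DMSO, 81.7 and 80.0 TPM in TCP, 96.3 and 99.9 TPM in Palbo, and 99.0 and 95.6 TPM in PTCP. NDUFV3, a small accessory subunit next to the NADH site, was at 48.5 and 49.0 TPM in DMSO, 42.6 and 45.6 TPM in TCP, 62.0 and 62.4 TPM in Palbo, and 60.8 and 58.4 TPM in PTCP. In these 3 genes both Palbo and both PTCP libraries lay above both DMSO and both TCP libraries. The increases in PTCP against DMSO were 0.49 ± 0.08, 0.39 ± 0.08 and 0.28 ± 0.07 (limma, adjusted p = 0.00233, 0.0048 and 0.0146), and in Palbo 0.37 ± 0.08, 0.40 ± 0.08 and 0.34 ± 0.07 (limma, adjusted p = 0.0097, 0.00545 and 0.00822). After median-ratio scaling they were larger, at 0.74, 0.63 and 0.52 in PTCP. NDUFA2 in Palbo was no longer called without DMSO replicate 1 or without Palbo replicate 1 (limma, adjusted p = 0.053 and 0.058), nor was NDUFV3 in PTCP when any 1 library of DMSO or PTCP was left out (limma, adjusted p from 0.0533 to 0.0862). NDUFC2 overlaps the read-through gene NDUFC2-KCTD14, with which reads can be shared.

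NDUFC1, the smallest accessory subunit of the membrane arm, rose in Palbo and was not called in PTCP. Its level was 29.0 and 26.7 TPM in DMSO, 27.2 and 28.4 TPM in TCP, 42.1 and 35.8 TPM in Palbo, and 28.6 and 27.7 TPM in PTCP. Both Palbo libraries were above the other 6. The difference against DMSO was 0.46 ± 0.10 in Palbo (limma, adjusted p = 0.00931) and 0.01 ± 0.10 in PTCP (limma, adjusted p = 0.914). Between PTCP and Palbo it was -0.45 and did not pass (limma, adjusted p = 0.065). With the replicate number as a block it did (limma, adjusted p = 0.0301). Without DMSO replicate 2 or Palbo replicate 1 the increase in Palbo missed the threshold (limma, adjusted p = 0.0609 and 0.0532).

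**Figure D3:**
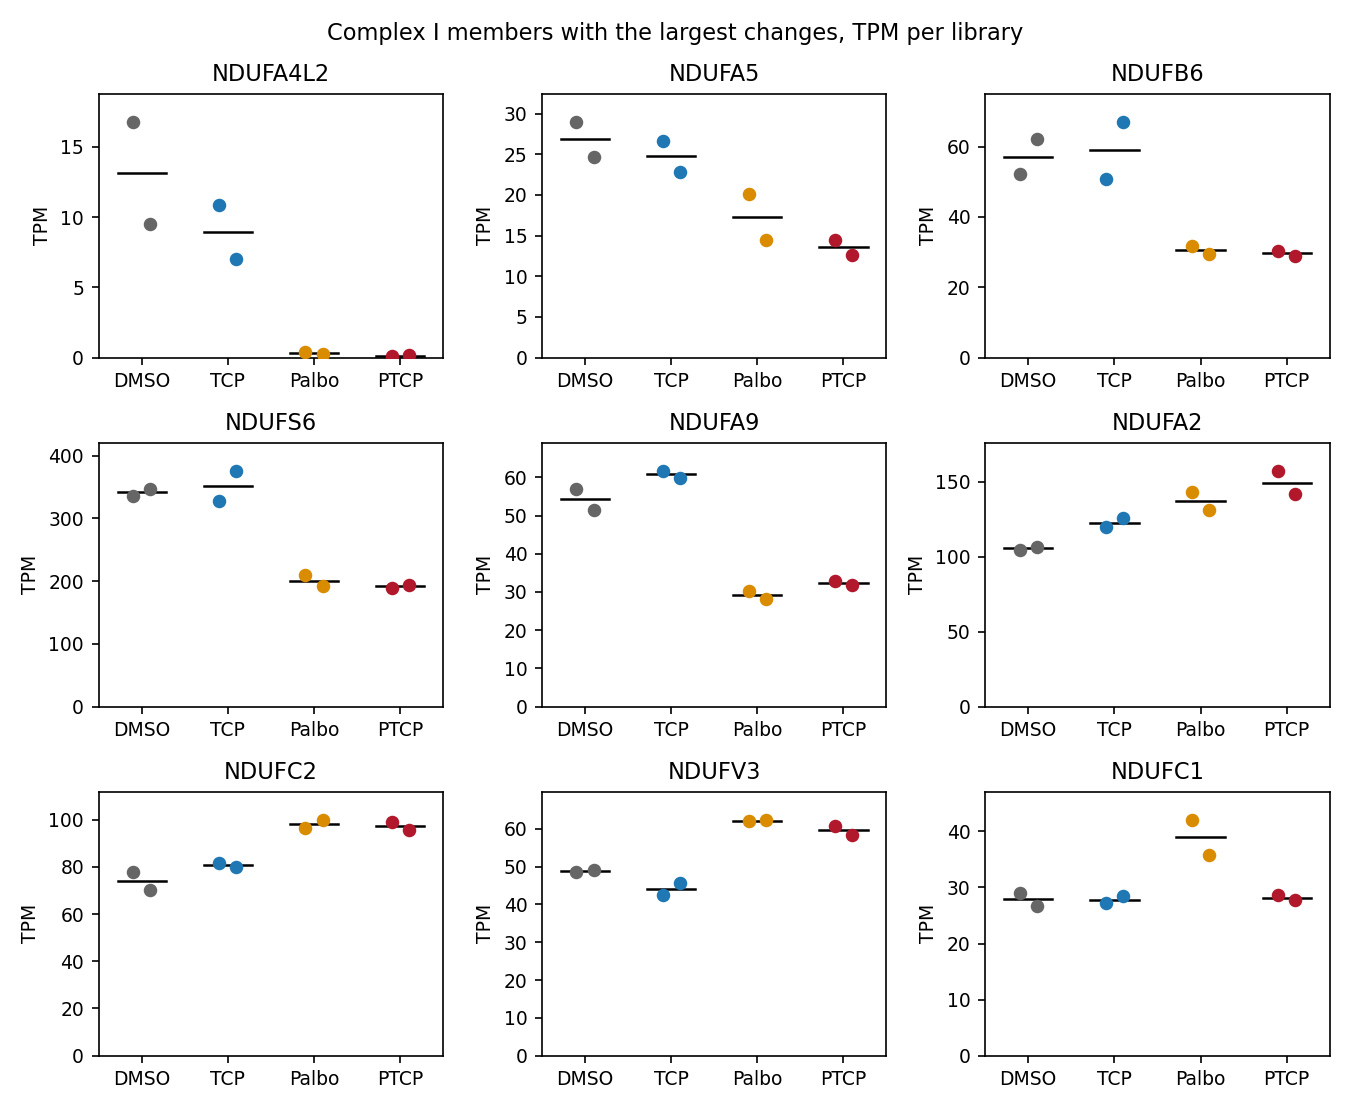
TPM in each library for 9 complex I members chosen for their changes against DMSO, with points for the 2 libraries of a group and bars for their mean. In NDUFA4L2, NDUFA5, NDUFB6, NDUFS6 and NDUFA9 all Palbo and PTCP points are below all DMSO and TCP points, in NDUFA2, NDUFC2 and NDUFV3 they are above, and in NDUFC1 only the Palbo points stand out.

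The nuclear-encoded core subunits of complex I carry the flavin and the iron-sulfur clusters or line the ubiquinone site. All 7 had a negative log2 fold change in PTCP, with a median of -0.53 against -0.19 in the other 31 complex I members, and 5 of the 7 passed. Over all genes, 64.9% had a negative log2 fold change in PTCP and 37.6% were called lower. NDUFS1, the largest iron-sulfur subunit, was at 62.1 and 65.7 TPM in DMSO and at 37.4 and 34.8 TPM in PTCP, and it fell by 0.81 ± 0.10 (limma, adjusted p = 0.00057). NDUFS3, NDUFS7, NDUFV1 and NDUFV2 also fell, with log2 fold changes of -0.77 ± 0.15, -0.65 ± 0.09, -0.53 ± 0.11 and -0.42 ± 0.09. NDUFS8 was not called, at -0.24 (limma, adjusted p = 0.212), although both PTCP libraries lay below both DMSO libraries. It was called without TCP replicate 1, without TCP replicate 2 and when only DMSO and PTCP were fitted (limma, adjusted p = 0.0407, 0.0412 and 0.0471), so libraries outside the comparison decided this call. After median-ratio scaling, 5 of the 7 were below 0, with a median of -0.28 against 0.05 in the other 31, and 3 passed, NDUFS1, NDUFS3 and NDUFS7. Of all genes, 49.9% were then below 0 and 22.7% called lower. In Palbo as deposited, 45% of all genes were called, 30.2% as lower. In Palbo, 4 of the 7 passed, and NDUFV2 did not without Palbo replicate 2 (limma, adjusted p = 0.153) or either DMSO library, nor NDUFS3 without DMSO replicate 2 (limma, adjusted p = 0.0605). NDUFB9, the complex I member with the highest mean TPM and an accessory subunit, fell by 0.42 ± 0.07 in PTCP (limma, adjusted p = 0.0029), from 429.7 and 457 TPM to 333 and 329.8 TPM, and was not called after median-ratio scaling (limma, adjusted p = 0.141).

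In complex II the catalytic pair fell and the membrane anchors did not pass. SDHA, the flavoprotein that oxidises succinate, was at 291 and 269 TPM in DMSO, 327 and 302 TPM in TCP, 194 and 162 TPM in Palbo, and 195 and 171 TPM in PTCP. SDHB, the iron-sulfur subunit, was at 98.02 and 85.8 TPM in DMSO, 95.5 and 96.1 TPM in TCP, 67.1 and 56.04 TPM in Palbo, and 55.9 and 59.4 TPM in PTCP. Both genes separated the 4 libraries with palbociclib from the 4 without. In PTCP, SDHA fell by 0.61 ± 0.11 (limma, adjusted p = 0.00369) and SDHB fell by 0.66 ± 0.11 (limma, adjusted p = 0.00225). The anchor SDHC was at 59.4 and 56.98 TPM in DMSO, 72.0 and 65.9 TPM in Palbo, and 63.5 and 64.7 TPM in PTCP, a difference of 0.14 ± 0.08 (limma, adjusted p = 0.201), and SDHD was at 228 and 233 TPM in DMSO and 208 and 196 TPM in PTCP, a difference of -0.19 ± 0.07 (limma, adjusted p = 0.0669). After median-ratio scaling SDHC passed as higher, by 0.38 in PTCP and 0.41 in Palbo (limma, adjusted p = 0.00575 and 0.00515). Under the block, SDHC passed as higher in Palbo (limma, adjusted p = 0.0215) and SDHD as lower in PTCP (limma, adjusted p = 0.0372).

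In complex III, 6 of 10 members fell in PTCP, where 37.6% of all genes were called lower. The range of log2 fold changes was -0.57 to 0.26. UQCRFS1, the Rieske iron-sulfur protein, was at 219 and 242 TPM in DMSO and at 179.9 and 181 TPM in PTCP. It fell by 0.35 ± 0.10 (limma, adjusted p = 0.0243), and leaving out DMSO replicate 2 or either PTCP library ended this call. UQCRHL, a near copy of the hinge protein gene UQCRH, had the highest TPM of the complex, and it fell from 351 and 357 TPM to 265 and 256 TPM (log2 fold change -0.44 ± 0.07, limma, adjusted p = 0.00203). Reads of UQCRH, which was at 292 and 268 TPM in DMSO and 185 and 190.1 TPM in PTCP, may have been counted for either gene. After median-ratio scaling neither UQCRFS1 nor UQCRHL passed in PTCP. The complex then had 1 member called lower and 3 higher, where 22.7% and 24.1% of all genes were.

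In complex IV all 11 members had a negative log2 fold change in Palbo and in PTCP, where 62.1% and 64.9% of all genes were below 0. Of the 11, 7 passed as lower in Palbo and 8 in PTCP, against 30.2% and 37.6% of all genes. After median-ratio scaling 8 of the 11 were below 0 in each, against 49.9% of all genes. COX8A, its most abundant member, was at 696 and 671 TPM in DMSO, 600.1 and 735 TPM in TCP, 556 and 526 TPM in Palbo, and 452 and 487 TPM in PTCP. COX7B, also a small subunit, was at 251 and 266 TPM in DMSO and at 170.1 and 166 TPM in PTCP. The log2 fold changes in PTCP were -0.54 ± 0.10 for COX8A and -0.62 ± 0.08 for COX7B (limma, adjusted p = 0.00457 and 0.000621). COX6A1 and COX7A2 also passed in PTCP, at -0.44 ± 0.09 and -0.52 ± 0.09. COX4I1, the widely expressed form of the largest nuclear-encoded subunit, differed by -0.17 ± 0.07 (limma, adjusted p = 0.0697, and 0.0329 under the replicate block), and COX6B1 by -0.09 ± 0.08 (limma, adjusted p = 0.401). In Palbo, COX8A, COX6A1 and COX7A2 were called with all libraries. They lost the call without Palbo replicate 2, at -0.30, -0.25 and -0.22, and without either DMSO library. Median-ratio scaling also ended these calls in Palbo (limma, adjusted p = 0.331, 0.435 and 0.188). COX8A and COX6A1 lost the call as well without Palbo replicate 1 and without either PTCP library. After median-ratio scaling 2 of the 11 passed in PTCP, both as lower. Over all genes, 22.7% then passed as lower and 46.9% in either direction.

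In complex V the alpha and beta subunits of the F1 head and the 3 genes of the c ring fell in PTCP. ATP5E, the epsilon subunit of the head, was at 261 and 226 TPM in PTCP, above both DMSO libraries, and differed by 0.17 ± 0.10 (limma, adjusted p = 0.213). After median-ratio scaling it passed as higher, by 0.41 (limma, adjusted p = 0.00931). ATP5B, the catalytic beta subunit and the most abundant member of all, was at 1071 and 1127 TPM in DMSO, 1131 and 1225 TPM in TCP, 871 and 794 TPM in Palbo, and 819 and 827 TPM in PTCP. ATP5A1, the alpha subunit, was at 571 and 615 TPM in DMSO, 575 and 648 TPM in TCP, 434 and 383 TPM in Palbo, and 376 and 367 TPM in PTCP. The 4 libraries with palbociclib were below the 4 without for both genes. In PTCP, ATP5B fell by 0.42 ± 0.08 and ATP5A1 fell by 0.67 ± 0.09 (limma, adjusted p = 0.00398 and 0.00111). After median-ratio scaling ATP5A1 passed, at -0.43 (limma, adjusted p = 0.0138), and ATP5B did not, at -0.17 (limma, adjusted p = 0.152). The 3 genes that encode the same mature c subunit of the ring differed in level and moved in the same direction. ATP5G2 was at 337 and 324 TPM in DMSO and 217 and 212 TPM in PTCP, ATP5G1 at 118 and 126 TPM and 93.0 and 87.9 TPM, and ATP5G3 at 80.8 and 84.4 TPM and 59.9 and 62.3 TPM. Their log2 fold changes in PTCP were -0.62 ± 0.08, -0.43 ± 0.10 and -0.43 ± 0.08 (limma, adjusted p = 0.000629, 0.00935 and 0.0049). The call of ATP5G1 ended without DMSO replicate 2 or PTCP replicate 2 and, like that of ATP5G3, after median-ratio scaling. The 8 members of complex V that were not called had differences between -0.33 and 0.24. The lowest was ATP5D, the delta subunit of the head, which was not called in Palbo or PTCP (limma, adjusted p = 0.0852 and 0.0826) and passed as lower in both under the replicate block (limma, adjusted p = 0.00256 and 0.00222).

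**Figure D4:**
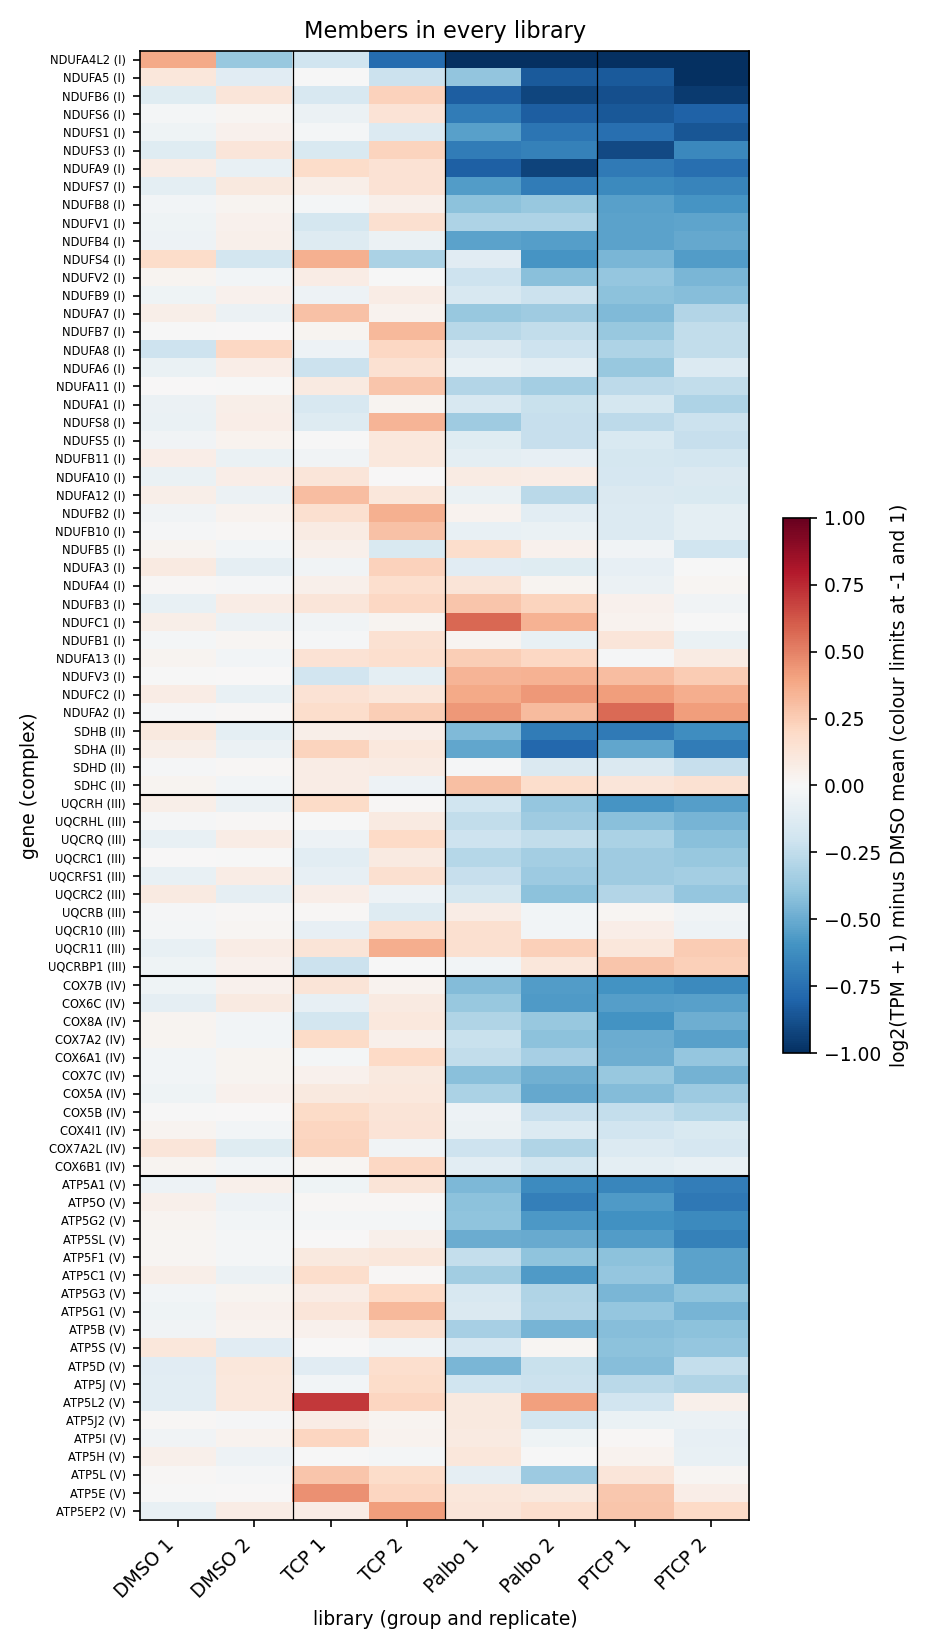
The plot shows 81 of the 82 members in the 8 libraries as log2(TPM + 1) minus the mean of the 2 DMSO libraries, ordered within each complex by the difference between PTCP and DMSO, with colour limits at -1 and 1. Blue in the 4 right columns marks members below DMSO in Palbo and PTCP, and the red rows at the foot of complex I are NDUFV3, NDUFC2 and NDUFA2.

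Adding TCP to palbociclib changed no member past the threshold. In PTCP against Palbo, 0 of 82 were called by limma, against 3.49% of all genes, and 9 members (11%) against 17.5% of all genes had an unadjusted p below 0.05. The member median and the median gene were both -0.07. They were -0.13 and -0.08 without Palbo replicate 2, and -0.03 and -0.06 without Palbo replicate 1. Both PTCP libraries lay below both Palbo libraries for 36 members (43.9%, against 37.2% of all genes) and above for 9 (11%, against 16.6%). With the replicate block 1 member passed, NDUFC1, which was lower in PTCP, against 8.87% of all genes. The interaction, the effect of both molecules beyond the sum of the effects of each, was called by limma for 0 members and for 0% of the 14151 genes. At an unadjusted p below 0.05 there were 13 members (15.9%) and 6.39% of all genes, and the lowest adjusted p among members was 0.525. The interaction was negative for 73 of the 82 members (89%, against 55.7% of all genes), with a median of -0.14 against -0.03 for all genes. Without Palbo replicate 2 it was negative for 75 members (91.5%, against 56.6%), with medians of -0.19 and -0.04, and without Palbo replicate 1 for 61 (74.4%, against 52.4%), with medians of -0.10 and -0.01.

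The effect of palbociclib could be measured in separate libraries, without TCP as Palbo minus DMSO and with TCP as PTCP minus TCP. The 82 members had a Pearson correlation of 0.942 and a Spearman correlation of 0.879 between the log2 fold changes, and the Pearson correlation was 0.875 without NDUFA4L2. Over the 14151 genes the correlations were 0.895 and 0.883. These are correlations across genes, which are not independent replicates, and the libraries share the cell line and the processing. Of the 82 members, 70 (85.4%, against 88% of all genes) had the same direction in both comparisons. The 36 members called in both comparisons (43.9%, near the 39.2% of all genes) all moved the same way, as did 5547 of the 5550 genes called in both. Without Palbo replicate 2 the correlations were 0.933 and 0.86, 66 members had the same direction (80.5%, against 85.4% of all genes), and 22 were called in both (26.8%, against 25.8%).

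**Figure D5:**
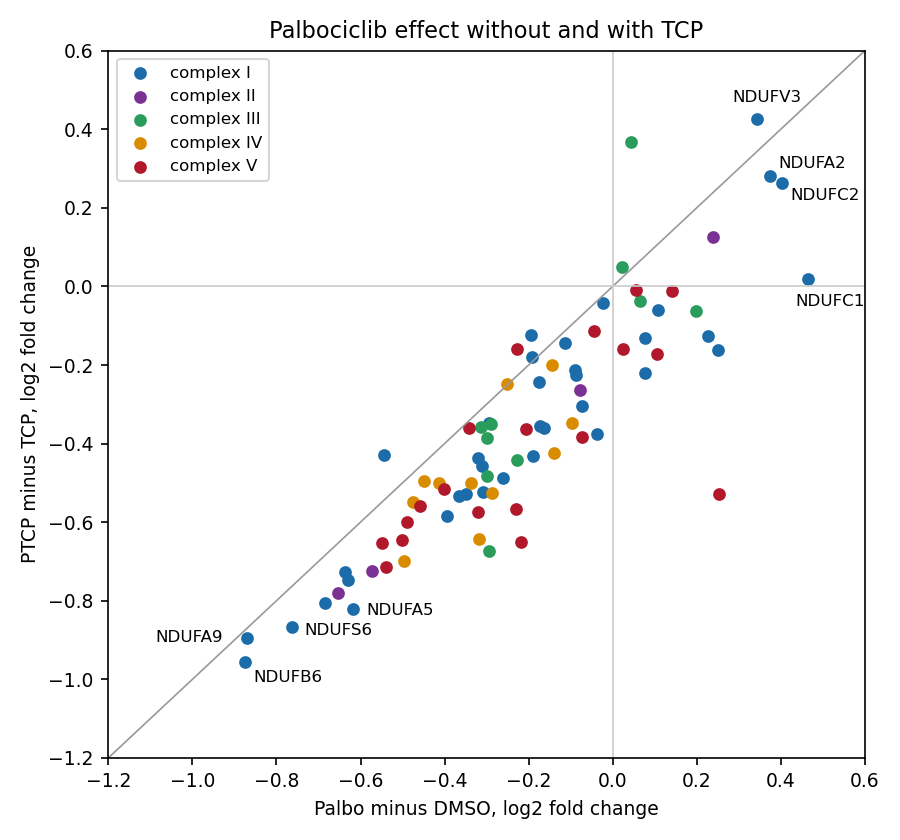
Log2 fold change of 81 members under palbociclib without TCP (Palbo minus DMSO, horizontal) and with TCP (PTCP minus TCP, vertical), coloured by complex, with the line of equality. NDUFA4L2 lies beyond the axes at -3.35 and -3.11, most points lie below the line, and NDUFC1 is higher in Palbo with almost no difference between PTCP and TCP.

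Genes that work with these complexes were compared by counts and medians. Over all genes, 37.6% were called lower and 15.9% higher in PTCP against DMSO, with a median of -0.22. Of 6 subunits and carriers outside the symbol rule, 3 fell in PTCP against DMSO and 0 rose, with a median of -0.24. CYC1, the cytochrome c1 of complex III, fell by 0.72 ± 0.09 and cytochrome c itself, CYCS, fell by 0.80 ± 0.10 (limma, adjusted p = 0.000639 and 0.000641), from 688 and 708 TPM to 419 and 429 TPM and from 163 and 176 TPM to 97.0 and 96.6 TPM. Of 48 assembly factors, 29 fell and 5 rose, with a median of -0.45. The copper chaperone gene SCO2, an assembly factor of complex IV, was at 105 and 101 TPM in DMSO, 137 and 149.6 TPM in TCP, 179.8 and 196 TPM in Palbo, and 250.1 and 273 TPM in PTCP. In PTCP that was an increase of 1.33 ± 0.08 (limma, adjusted p = 5.61e-05), while in TCP it did not pass (limma, adjusted p = 0.0996). Of 15 regulators of mitochondrial biogenesis, 11 fell and 0 rose, with a median of -0.65. They included NRF1, at -0.94 ± 0.11, and TFAM, the mitochondrial transcription and packaging factor, at -0.81 ± 0.09 (limma, adjusted p = 0.000545 and 0.000405). Of 18 enzymes of the tricarboxylic acid cycle and its entry, 14 fell and 1 rose, with a median of -0.45. After median-ratio scaling 17 assembly factors, 9 biogenesis regulators and 8 of the enzymes were lower and 9, 0 and 1 were higher. The subunits outside the rule then had 2 lower and 2 higher with a median of 0.00. Over all genes, 22.7% were called lower and 24.1% higher after this scaling.

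The 2 ribosomal families served as comparison, beside 37.6% of all genes called lower and 15.9% higher in PTCP against DMSO. Of 77 mitochondrial ribosomal protein genes, whose products translate the subunits encoded in mitochondrial DNA, 64 fell and 2 rose in PTCP against DMSO, with a median of -0.59. Of 79 cytosolic ribosomal protein genes, 37 fell and 1 rose, with a median of -0.25. After median-ratio scaling 36 of the mitochondrial family were lower and 3 higher, while the cytosolic family turned to 5 lower and 10 higher. Of all genes, 22.7% were then lower and 24.1% higher. The members, at -0.32 with 43 of 82 lower, thus lay between these families, as they did after median-ratio scaling, with medians of -0.35, -0.08 and -0.01 for mitochondrial ribosomal proteins, members and cytosolic ribosomal proteins. The 12 cell cycle genes all fell in PTCP, with a median of -1.55, and in Palbo, with a median of -1.10, and their summed level was 2326 to 2909 TPM in DMSO and TCP and 912 to 1288 TPM in Palbo and PTCP. The part of the lower cell cycle transcript level in the members' values was not tested, and fewer cells with a given level and less RNA per cell cannot be told apart in these bulk libraries.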

How the data were processed

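RNA was sequenced from MV4-11 cells in 4 groups of 2 libraries. The authors mapped the reads to GRCh37 with Subread, counted them per gene with featureCounts 1.6.4 and deposited TPM per gene symbol. The gene annotation, gene lengths and strand setting are not given in the sources used here. TPM hold no read depth, so counting error is unknown, and each library had 13320 to 13640 genes at 1 TPM or above.

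Genes reaching 1 TPM in 2 or more libraries (14151 of 26364) were tested as log2(TPM + 1) with limma 3.58.1 in R 4.3.3, with a coefficient per group over the 8 libraries (4 residual degrees of freedom), trended variances and Benjamini-Hochberg adjustment over all genes tested. The code was tested on simulated data. Members and lists were chosen with earlier results of these data known. Members were named by rule: up to 4 largest called increases and decreases per comparison with groups that do not overlap, those past the thresholds of the study, the highest mean TPM per complex, core subunits and isoform partners. The values of 1 member are not reported here by name. ATP5D, ATP5E, ATP5J, ATP5L, UQCR11, UQCRBP1 and UQCRH were named after their values were seen. From each related list up to 6 genes with the largest changes in PTCP could be named. Same-numbered libraries deviated together in all 6 pairs of groups (correlation over genes 0.169 to 0.491), a pairing seen in the values and not stated in the labels. Gene coordinates are those of GENCODE lifted to GRCh37, and promoters those of RefSeq on GRCh38.p14. The alternatives changed the pseudocount (0.1), the filter, the scaling, the replicate block, the threshold and the libraries included.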

Additional observations from a re-analysis of the deposited data

Results flagged for a closer look

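Of 82 members, each compared for the effect of TCP without and with palbociclib and for the effect of palbociclib without and with TCP, 12 and 4 moved in opposite directions in the libraries of the 2 settings. The limma interaction test was run for each, and none passed, with adjusted p from 0.525 to 0.967, so that no difference between the settings is shown. The share of all genes moving in opposite directions was not counted, so 12 and 4 are not shown to be particular to the members.

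For the effect of TCP, both TCP libraries lay above both DMSO libraries while both PTCP libraries lay below both Palbo libraries in 11 of these genes. The interaction was -0.35 for NDUFA13 (0.16 without and -0.20 with palbociclib), -0.41 for NDUFB3 (0.17 and -0.25), -0.23 for NDUFB10 (0.19 and -0.04) and -0.21 for NDUFA4 (0.11 and -0.10). In complex IV it was -0.25 for COX4I1, -0.28 for COX5B and -0.32 for COX7A2. In complex V it was -0.26 for ATP5F1, -0.43 for ATP5G1, -0.34 for ATP5G3 and -0.78 for ATP5L2, a near copy of another gene. NDUFB4 moved the other way, with an interaction of 0.12.

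For the effect of palbociclib, NDUFA10, NDUFA13, NDUFA4 and NDUFB3 were higher in Palbo than in DMSO and lower in PTCP than in TCP, with interactions of -0.30, -0.35, -0.21 and -0.41. After median-ratio scaling the opposite movement was still present in 5 of the 16 cases, which were the effects of TCP on ATP5G1, ATP5G3, COX7A2, NDUFA13 and NDUFB3. The cause of these patterns was not tested.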

How the results depend on the processing

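Under 19 alternatives no called value of a named member changed direction, but medians near 0 did, by scaling (below) or when a library was left out, namely those of complexes I and III in TCP against DMSO (down to -0.0086 and -0.0287) and of complex II in PTCP against Palbo (up to 0.0002). With adjusted p below 0.01, 24 members passed in Palbo against DMSO, and with the thresholds of the study 1 passed in each of Palbo against DMSO, PTCP against DMSO and PTCP against TCP. The share of all genes is not given at adjusted p below 0.01 or, except without Palbo replicate 2, with single libraries left out. Shifts of these counts are thus not shown to be particular to the members. Leaving out single libraries gave 23 to 45 members in Palbo against DMSO, 34 to 50 in PTCP against DMSO and 39 to 53 in PTCP against TCP. With the replicate block 1 member passed in PTCP against Palbo, NDUFC1 as lower, and with the block on median-ratio scaled TPM, an alternative added once the data had been seen, a different one, ATP5L as higher by 0.37 (limma, adjusted p = 0.039). The block moved the higher members in PTCP against DMSO from 3 to 5 and no other count of members by over 1.5 times, and for named members in Palbo or PTCP against DMSO it changed the calls given above and added, among others, those of NDUFV1, NDUFB9 and ATP5G3 in Palbo (limma, adjusted p = 0.0287, 0.0415 and 0.0456). The cause of these changes was not tested.

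Median-ratio scaling moved the medians of complexes I to V to -0.0145, -0.15, -0.0837, -0.14 and -0.0516 in Palbo against DMSO, to -0.0068, -0.15, -0.10, -0.18 and -0.17 in PTCP against DMSO, to -0.16, -0.29, -0.15, -0.30 and -0.31 in PTCP against TCP, and those of complexes I to V in PTCP against Palbo to -0.0025, -0.0278, 0.0157, -0.0057 and -0.0092, so that of complex III changed sign. Quantile normalization moved those of complexes I to V to -0.0797, -0.22, -0.14, -0.22 and -0.11 in Palbo against DMSO to -0.22, -0.36, -0.24, -0.40 and -0.42 in PTCP against TCP, and to -0.0618, -0.28, -0.20, -0.31 and -0.20 in PTCP against DMSO. Both scalings set the median gene nearer to 0 by construction.

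Leaving out single libraries, the median ranged from -0.0086 to 0.13 for complex I in TCP against DMSO, from -0.42 to -0.23 and from -0.38 to -0.25 for complexes II and IV in Palbo against DMSO, from -0.17 to 0.0002 and from -0.16 to -0.0342 for these complexes in PTCP against Palbo, from -0.41 to -0.28 and from -0.37 to -0.26 for complexes I and III in PTCP against TCP, and from -0.26 to -0.0365, from -0.22 to -0.0202 and from -0.20 to -0.11 for the interaction in complexes II, III and IV. Of the values of 35 named members under the alternatives, 152 lost and 33 gained a call and 2475 did neither. Only 51 of their 140 main values were called, and a value without a call could not lose one. The losses include those under the thresholds of the study. Read depth is unknown. Data were simulated for PTCP against DMSO over 14151 genes, with only 100 of them changed. Of 100 genes changed by 0.5 on the log2 scale, 22 were called, and of 100 changed by 1, 75 were called. In the measured libraries 53.6% of all genes were called, so these shares do not give the sensitivity of this comparison. A missed call still does not show that a member was unchanged.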
